A study of Mus musculus with 24 samples.

Results

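The erythroid programme was followed through single haematopoietic stem cells (HSCs) by 6 of its genes: the transcription regulators Gfi1b, Nfe2, Gata1 and Klf1 and the carbonic anhydrases Car1 and Car2. Each was found as 1 entry of the deposited table of unique molecular identifier (UMI) counts, so the members are 6 of 27297 gene entries. The cells came from mice of the strain -60/DR5-TA-RA-CFP, which carries a cyan fluorescent protein (CFP) reporter, shared by all cells compared here, and the labels name no treatment, age or sex. They were sorted singly as LSK CD150+ CD48- cells (LSK: lineage-negative, Sca-1 and Kit positive), and the cytometer's record was kept for 1430 wells on 4 sort plates numbered 2 to 5. Each recorded cell also has a map number from 1 to 10 whose meaning is not stated. The 10 cells of map 1, which held 2097 globin UMIs of 18748, were left out, and 1420 cells of map groups 2 to 10 were described.

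GATA1 is the zinc finger factor on which red cell differentiation depends, and GFI1B is a repressor that recruits histone-modifying complexes and acts beside it in the erythroid and megakaryocytic lineages. NFE2 is the subunit of the NF-E2 factor that pairs with small MAF proteins. It is needed for platelet formation and also acts on globin genes. KLF1 binds CACCC-type elements and drives late red cell genes, while the carbonic anhydrases convert carbon dioxide to bicarbonate and are abundant in red cells. HSCs are known to carry low levels of such lineage transcripts before any commitment.

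Promoter sequence was at hand for 3 of the 6 members, from RefSeq on GRCm38.p6, and it is shown because erythroid regulators are known to be controlled through GATA elements. The 250 bases before each start are given 5′ to 3′ on the gene's own strand, with capitals where TGATAA or AGATAA was found on either strand. These regions lie at chr2:28621983-28622232 (minus strand) for Gfi1b, chrX:7967911-7968160 (minus strand) for Gata1 and chr8:84901732-84901981 (plus strand) for Klf1.
Gfi1b: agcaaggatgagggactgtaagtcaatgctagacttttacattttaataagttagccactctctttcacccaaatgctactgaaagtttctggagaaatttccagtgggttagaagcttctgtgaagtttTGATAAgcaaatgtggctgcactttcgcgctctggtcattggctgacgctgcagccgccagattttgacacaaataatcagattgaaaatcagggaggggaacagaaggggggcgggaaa
Gata1: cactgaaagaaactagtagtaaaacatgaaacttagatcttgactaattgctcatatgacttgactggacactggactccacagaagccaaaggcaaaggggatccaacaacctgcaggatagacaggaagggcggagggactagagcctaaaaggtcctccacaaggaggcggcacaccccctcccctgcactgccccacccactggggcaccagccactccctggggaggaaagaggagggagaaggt
Klf1: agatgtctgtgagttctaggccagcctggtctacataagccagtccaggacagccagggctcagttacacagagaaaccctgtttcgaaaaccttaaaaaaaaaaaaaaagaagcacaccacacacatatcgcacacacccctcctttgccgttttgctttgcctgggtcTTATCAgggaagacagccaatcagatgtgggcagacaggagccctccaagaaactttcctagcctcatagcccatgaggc
The Gfi1b window held TGATAA, starting 120 bases before the start. The Klf1 window held the same element on the opposite strand, printed as TTATCA, 80 bases before the start. The Gata1 window held neither form, and 3 matches to CCNCNCCC on its own strand. The Gfi1b window also matched CCNCNCCC, on the opposite strand, 28 and 12 bases before the start. Of 32851 promoter windows of this length, 16.6% held TGATAA or AGATAA on either strand and 45.9% held CCNCNCCC, so these matches are common and describe letters, not binding. Nfe2, Car1 and Car2 are described from their UMIs alone.

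The 1420 cells held 2090806 UMIs, from 511 to 6026 a cell with a median of 1262.5, and the plates held 343 to 364 cells and 480225 to 556772 UMIs each. All 24 genes of the HSC marker list were detected (11419 UMIs), Kit in 448 cells and Procr in 166. All 16 genes of the myeloid progenitor and neutrophil list were detected too (2875 UMIs), and 10 of 16 lymphoid genes (1630 UMIs). The T and B cell genes Cd3e and Cd79a were among the lymphoid genes at 0. Detection alone therefore does not set the HSC list apart. Plate 2 stood apart: it held 52 of the 86 cells of map group 7. Its summed HSC marker level was 3809 counts per 1000000 UMIs (CPM) against 5887 to 5993 on the other plates. Ifitm1, a gene of that list with 4037 of its 11419 UMIs, was at 225 CPM against 2369 to 2556. The gap in Ifitm1 was about as wide as the gap in the list sum. The lower sum therefore does not show the rest of the HSC list to be lower on plate 2. Results that move with plate 2, which differed in group 7 cells and Ifitm1, are given with and without it. The labels list 8 single-cell samples and no file ties wells to them, so plates served as 4 technical replicates of a pool. The p-values speak only for these plates. Those of edgeR rest mostly on a spread shared over genes, not on a gene's own spread between plates. The residual degrees of freedom were 6 (CFP fit) and 3 (cycle fit), against a prior of 370.5 and 43.9.

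Car2 and Nfe2 were carried by most of these stem cells, Gfi1b and Car1 by a minority, and Gata1 and Klf1 by few. Car2 had at least 1 UMI in 1294 of 1420 cells (91.1%, exact binomial 95% interval 89.5 to 92.6%), and 1089 cells held 2 or more. Nfe2 was detected in 795 cells (56.0%, 53.4 to 58.6%) with at most 8 UMIs in a cell. Gfi1b was detected in 266 cells (18.7%, 16.7 to 20.9%), with at most 7 UMIs, and Car1 in 159 (11.2%, 9.60 to 13.0%). Gata1 was detected in 52 cells (3.66%, 2.75 to 4.78%) and Klf1 in 33 (2.32%, 1.61 to 3.25%), from 63 and 35 UMIs in all. These intervals cover counting error only.

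Because a share of cells with a UMI moves with depth, each cell of at least 1000 UMIs was also thinned to 1000. In these 1016 cells the shares were 89.0% for Car2, 46.0% for Nfe2, 14.7% for Gfi1b, 8.46% for Car1, 1.87% for Gata1 and 1.67% for Klf1. Levels were also read in the 106 wells without a sort record, which held a median of 224 UMIs and at most 502. In them Car2 was at 2074 CPM (exact Poisson 95% interval 1549 to 2720), against 2720 in the cells, and Nfe2 was at 758 CPM (456 to 1184) against 677. Gfi1b was at 359 CPM (164 to 682) against 174, Car1 at 439 (219 to 785) against 142, Klf1 at 79.8 (9.66 to 288) against 16.7, and Gata1 at 0 (up to 147) against 30.1. What these wells held is not stated, so they are not taken as a measure of free RNA. The interval of Car1 in these wells lay wholly above its level in the cells. The part of free RNA in the cells with a UMI was not tested for any member, the single-UMI cells of Gata1 and Klf1 included.

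**Figure D1:**
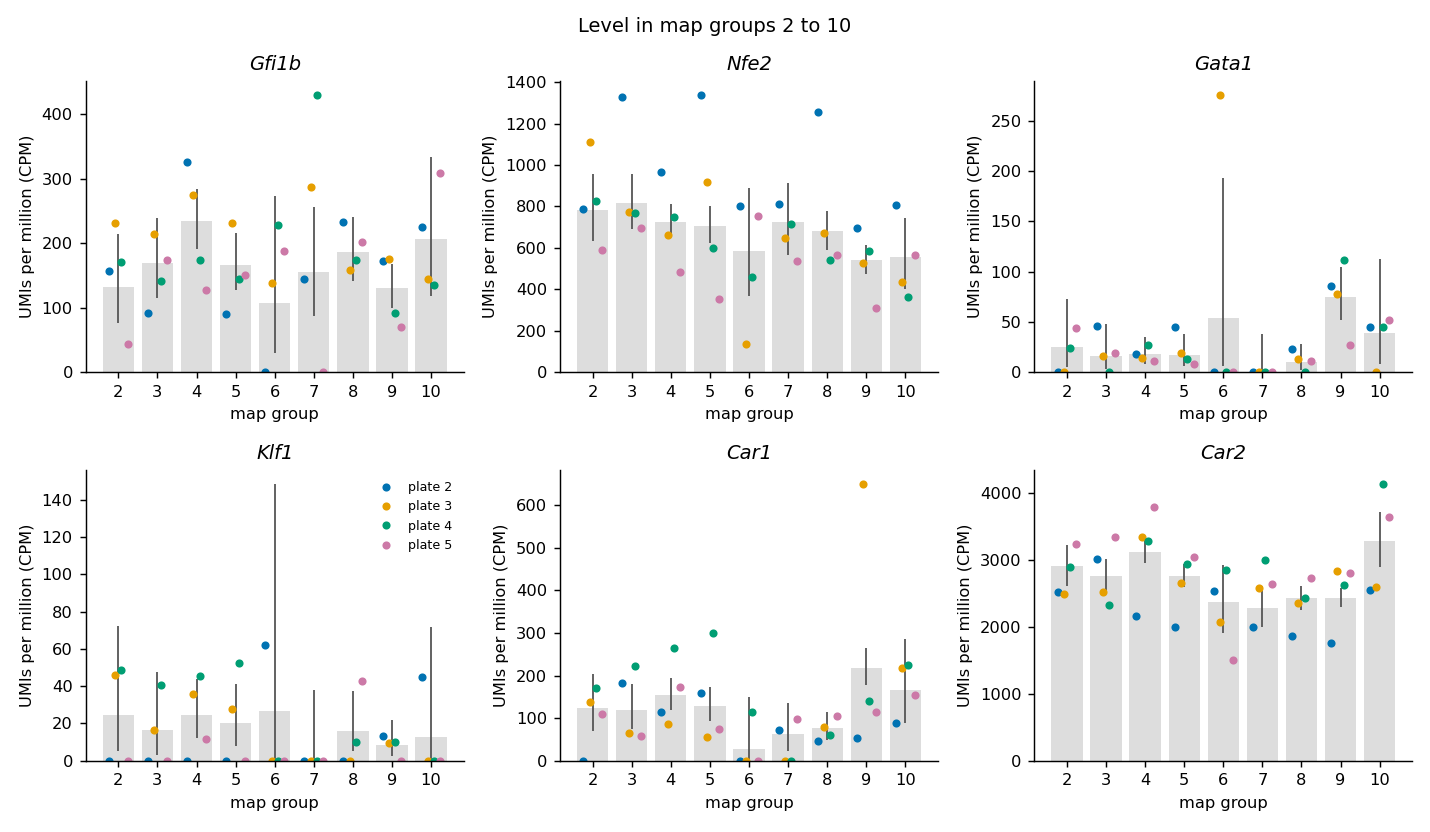
Level of each gene in map groups 2 to 10, in CPM. Grey bars are the pooled level with its exact Poisson 95% interval (counting error only) and points are the 4 sort plates; Gata1 stands at 75.1 CPM in group 9, and the high Car1 point of group 9 on plate 3 rests on 1 cell.

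Across the map groups the regulators did not follow a common order. The groups differ in cycling: S phase and G2/M list genes made up 0.466 to 0.646% of UMIs in groups 2 to 7, and 1.13, 1.57 and 2.34% in groups 8, 9 and 10. Group 9, with 188 cells, also had the highest median depth (2340.5 UMIs a cell) and a median CFP rank of 86.0% within the plate. The groups may have been drawn from these same expression values, so their levels are a description without a test.

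Gata1 was concentrated in group 9. That group held 35 of the 63 Gata1 UMIs (55.6%) and 22.3% of all UMIs. Its level there was 75.1 CPM (52.3 to 104), against 17.2 (11.5 to 24.9) over the other groups together. By plate, group 9 stood at 86.1, 77.7, 111 and 26.5 CPM on plates 2, 3, 4 and 5, and the other groups at 21.3, 18.2, 14.6 and 15.8. Group 9 was the higher on each of the 4 plates, by the least on plate 5, where it held 3 Gata1 UMIs. The cell richest in Car1 held 3 of the group's Gata1 UMIs. Without it group 9 was at 69.5 CPM (47.6 to 98.2), and at 51.6 CPM on plate 3. After thinning to 1000 UMIs, 9 of 178 cells of group 9 had a Gata1 UMI (5.06%, 2.34 to 9.38%) against 10 of 838 elsewhere (1.19%, 0.574 to 2.18%). Group 10, the group richest in G2/M genes, had 3 Gata1 UMIs (38.6 CPM, 7.96 to 113), too few to be placed against group 9. The same holds for group 6, with 2 UMIs (53.4 CPM, 6.46 to 193). Group 7 had none among its 96894 UMIs, a depth that allows up to 31.0 CPM, so a level like that of the other groups was not detectable there.

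GATA1 is also used by mast cells, eosinophils and megakaryocytes. In group 9 the mast cell and basophil list summed to 6.43 CPM, 10 of its 12 genes being at 0 in all cells, and the 6 eosinophil genes were at 0 throughout. The megakaryocyte list, with 21 of 23 genes detected, summed to 1096 CPM in group 9 and to 1063 to 1492 in the other groups. The red cell differentiation list, with 40 of 41 genes detected, summed to 4137 CPM in group 9, below group 2 at 4595 and above the remaining groups at 3282 to 4053. Globin summed to 232 CPM in group 9, below the 289 to 592 of the others.

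Nfe2 had its lowest pooled levels in groups 9 and 10. It was 784, 816, 727 and 707 CPM in groups 2 to 5 and 587, 722 and 679 in groups 6 to 8, with 540 CPM in group 9 (476 to 611) and 553 in group 10 (400 to 745). In thinned cells 37.1% of group 9 had a Nfe2 UMI (29.97 to 44.6%), against 47.9% of the others (44.4 to 51.3%). Group 10 was not low by that share, at 50.0% (31.3 to 68.7%), and group 6 was at 33.3% (13.3 to 59.0%). By the mean of the 4 plates groups 6, 9 and 10 lay close together, at 538, 529 and 542 CPM.

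Gfi1b ran from 107 CPM in group 6 (4 UMIs) to 234 in group 4 (192 to 283), the group with most cells. Its level in group 9 was 131 CPM (100 to 168), and 14 of 178 thinned cells there had a UMI (7.87%, 4.37 to 12.8%) against 135 of 838 elsewhere (16.1%, 13.7 to 18.8%). On plates 2, 3, 4 and 5 the Gfi1b level was 326, 274, 174 and 127 CPM in group 4 and 172, 175, 90.9 and 70.6 in group 9. Group 4 was the higher on each plate, and the ranges over plates overlapped. Klf1 had between 0 and 11 UMIs in a group and its intervals overlapped in all 9.

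Car2 was carried by all 9 groups. It lay between 2291 CPM in group 7 (2000 to 2613) and 3294 in group 10 (2903 to 3723), and group 4 stood at 3124 (2962 to 3292). Group 7 drew 52 of its 86 cells from plate 2, the plate lowest in Car2, and by the mean of the 4 plates it was at 2559 CPM, above groups 6, 8 and 9 (2242, 2349 and 2512). Neighbours in that order were not separated from each other beyond the spread of the plates: the SD over plates within a group was 351 to 788 CPM. Car1 had its highest pooled value in group 9, at 219 CPM, but 64 of the 102 UMIs came from 1 cell, and the group stood at 82.6 CPM without it. Car1 was then highest in group 10, at 167 CPM (89.1 to 286), and group 4, at 154 (120 to 195), and lowest in group 6, with 1 UMI.

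**Figure D2:**
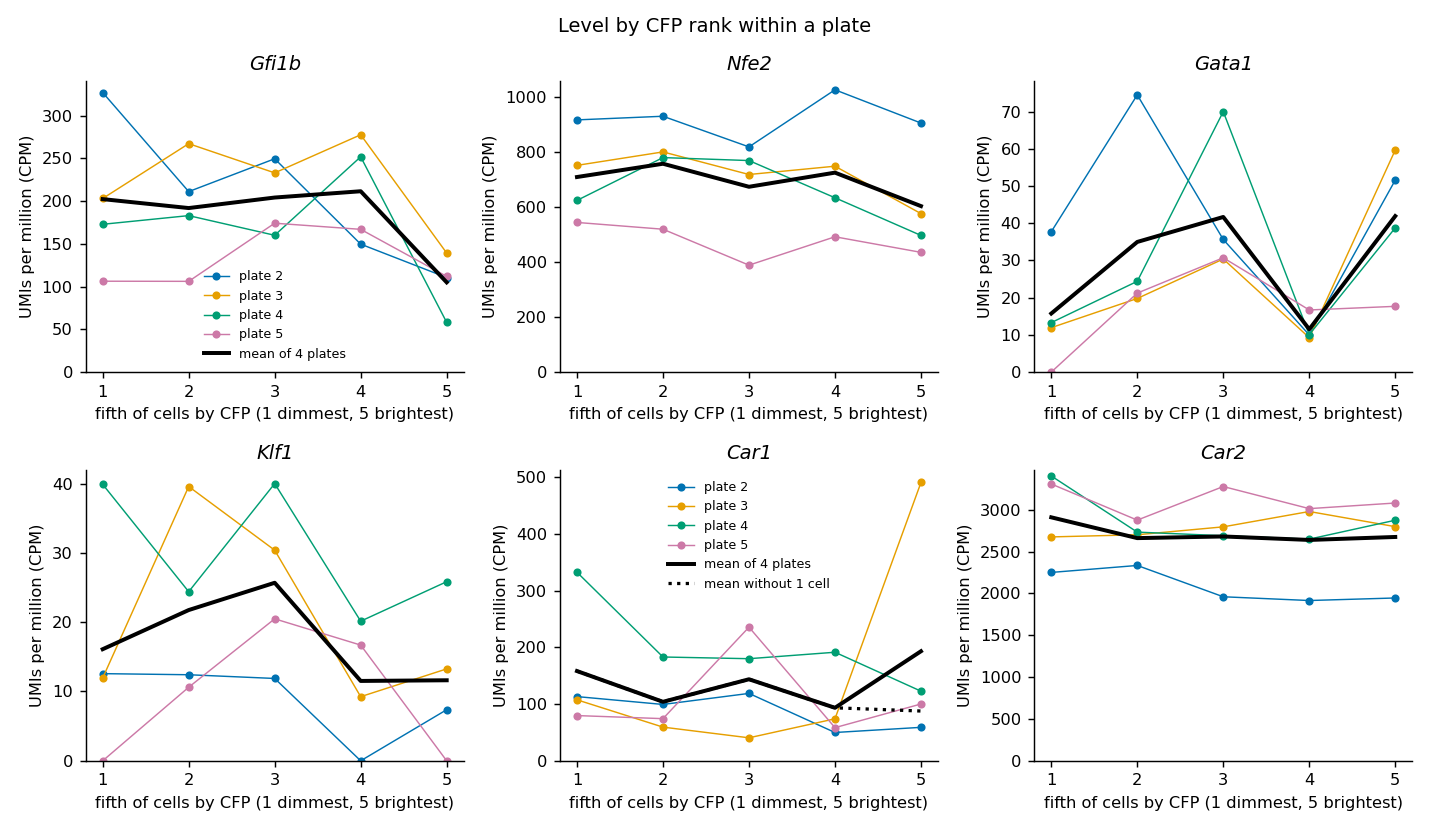
Level of each gene in quintiles of the cells by CFP rank within a plate, in CPM, with 1 line per sort plate and the mean of the 4 plates in black. Gfi1b was flat over quintiles 1 to 4 (pooled 193 to 211 CPM) and 105 CPM in the brightest; the rise of Car1 in the brightest quintile is 1 cell on plate 3, and the dotted line leaves it out.

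The CFP reporter was the study's own way of dividing HSCs, and cells were compared here as the 20% brightest (285 cells), the 20% dimmest (285) and the 850 between, within each plate. Gfi1b was lower in the bright cells. The other 3 members that could be tested, Nfe2, Car1 and Car2, did not pass the test of bright against dim. Of 3861 genes tested in the summed UMIs of each plate and fraction, 406 (10.5%) were called at an adjusted p under 0.05 with edgeR's quasi-likelihood test, 234 of them higher (6.06%) and 172 lower (4.45%). Without the filter on low counts 331 of 387 calls were higher. The 1 call among 4 members is to be read against that background. Gata1 and Klf1 did not pass the filter on low counts.

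Gfi1b stood at 111, 139, 58.1 and 112 CPM in the bright cells of plates 2, 3, 4 and 5, and at 323, 211, 183 and 105 CPM in the dim cells. The bright value was the lower on plates 2, 3 and 4, and on plate 5 the fractions were alike. The log2 fold change was -0.97 ± 0.27 (SE, n = 4 plates, edgeR adjusted p = 0.00689). The intermediate cells, at 201, 258, 196 and 151 CPM, were above the bright cells on each of the 4 plates, and the difference between bright and intermediate was -0.94 ± 0.21 (adjusted p = 0.000411), with 10.3% of all genes called in that comparison (6.14% higher and 4.12% lower). Between intermediate and dim cells only 1 gene of the whole table was called (0.0259%), higher in the intermediate cells and not a member (297 genes at an unadjusted p under 0.05, and 1 called by DESeq2). By quintiles of CFP rank the pooled level was 204, 193, 202 and 211 CPM in the first 4 and 105 in the brightest.

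The contrast with the dim fraction changed with single plates and with 1 cell. One dim cell of plate 2, in map group 9, held 7 of the 26 Gfi1b UMIs there, and it was also the only cell with UMIs of all 6 members. Without it the fold change was -0.83 ± 0.28 (adjusted p = 0.0338). Without plate 2 it was -0.71 (adjusted p = 0.180), and without plate 4 it was -0.81 (adjusted p = 0.0921). The contrast with the intermediate cells remained called without any 1 plate (-1.12 to -0.75, adjusted p 0.000400 to 0.0358). Without the plate as a block neither contrast was called (-0.99, adjusted p = 0.121, and -0.95, adjusted p = 0.117).

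S phase and G2/M genes moved with CFP: 17 of 25 tested S phase genes and 21 of 27 tested G2/M genes were higher in the bright cells, where these 2 lists summed to 6411 to 7632 CPM and 5453 to 9193 CPM against 2697 to 3146 and 2296 to 2883 in the dim. Without the 20% of cells highest in these genes, Gfi1b was at -0.52 (adjusted p = 0.654) between bright and dim and -0.70 (adjusted p = 0.526) between bright and intermediate, and only 19 and 0 genes were called in all. Within map groups 2 to 7, which are low in cycle genes, the pooled Gfi1b level was 131 CPM in 93 bright cells (77.5 to 207) and 184 in 258 dim cells (137 to 241), lower in the bright on 3 of 4 plates. Within groups 8 to 10 it was 97.1 CPM in 192 bright cells and 397 in 27 dim cells, the latter from 14 UMIs of which 7 were in the 1 cell. Ranking CFP within each map group gave -0.60 (adjusted p = 0.359) between bright and dim and -0.10 (adjusted p = 0.978) between bright and intermediate.

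Nfe2 was at 906, 577, 497 and 436 CPM in the bright cells of plates 2, 3, 4 and 5, and at 932, 739, 668 and 564 in the dim. The bright value was lower on each plate, and the plates overlapped between fractions. The fold change of -0.29 ± 0.13 did not pass the test (adjusted p = 0.158), and with CFP ranked inside map groups it was 0.10 (adjusted p = 0.898). Bright against intermediate gave -0.26 ± 0.10 (adjusted p = 0.0867), and -0.37 (adjusted p = 0.0409) without plate 2. Car2 was at 1945 to 3080 CPM in the bright and 2225 to 3411 in the dim cells, with a fold change of -0.14 ± 0.07 (adjusted p = 0.183).

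Car1 was at 59.0, 491, 123 and 100 CPM in the bright cells of plates 2, 3, 4 and 5 and at 112, 106, 327 and 78.7 in the dim. The fold change of 0.28 ± 0.29 (adjusted p = 0.633) changed sign, to -0.82 ± 0.31 (adjusted p = 0.0679), when 1 cell of plate 3 was left out. Bright against intermediate gave 0.72 ± 0.23 (adjusted p = 0.0240) with that cell and -0.36 (adjusted p = 0.470) without it.

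Gata1 had 25 UMIs in the bright cells and 5 in the dim, from 7, 9, 6 and 3 UMIs against 3, 1, 1 and 0 on plates 2, 3, 4 and 5. The bright count was the higher on each plate, and bright cells held 1.92 times as many UMIs in all. Pooled over plates the level was 40.9 CPM in bright and 15.7 CPM in dim cells. Without the cell richest in Car1 the bright cells held 22 Gata1 UMIs, at 36.4 CPM. The level did not climb steadily with CFP: from the dimmest quintile to the brightest it was 15.9, 33.5, 42.0, 11.7 and 40.9 CPM. In a fit without the filter the fold change was 1.51 ± 0.67 (adjusted p = 0.326). Klf1 had 7 UMIs in the bright and 5 in the dim cells.

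The same comparison was made on the share of thinned cells with a UMI, by flipping the signs of the 4 plate differences (an exact permutation test, two-sided). With 4 plates its smallest p is 1 in 8, so it cannot pass 0.05, and none of the 6 members did. The Gfi1b share was 11.8% ± 3.59 (SD, n = 4) in the bright and 15.95% ± 4.69 in the dim cells, lower on 2 of 4 plates (exact permutation p = 0.5, adjusted over 6 members p = 0.75). The Nfe2 share was 42.3% ± 9.4 and 47.5% ± 7.6 (exact permutation p = 0.375, adjusted p = 0.75). Without thinning the Nfe2 share was instead 18.6 percentage points higher in the bright cells, which had a median of 1822 UMIs against 1059.

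**Figure D3:**
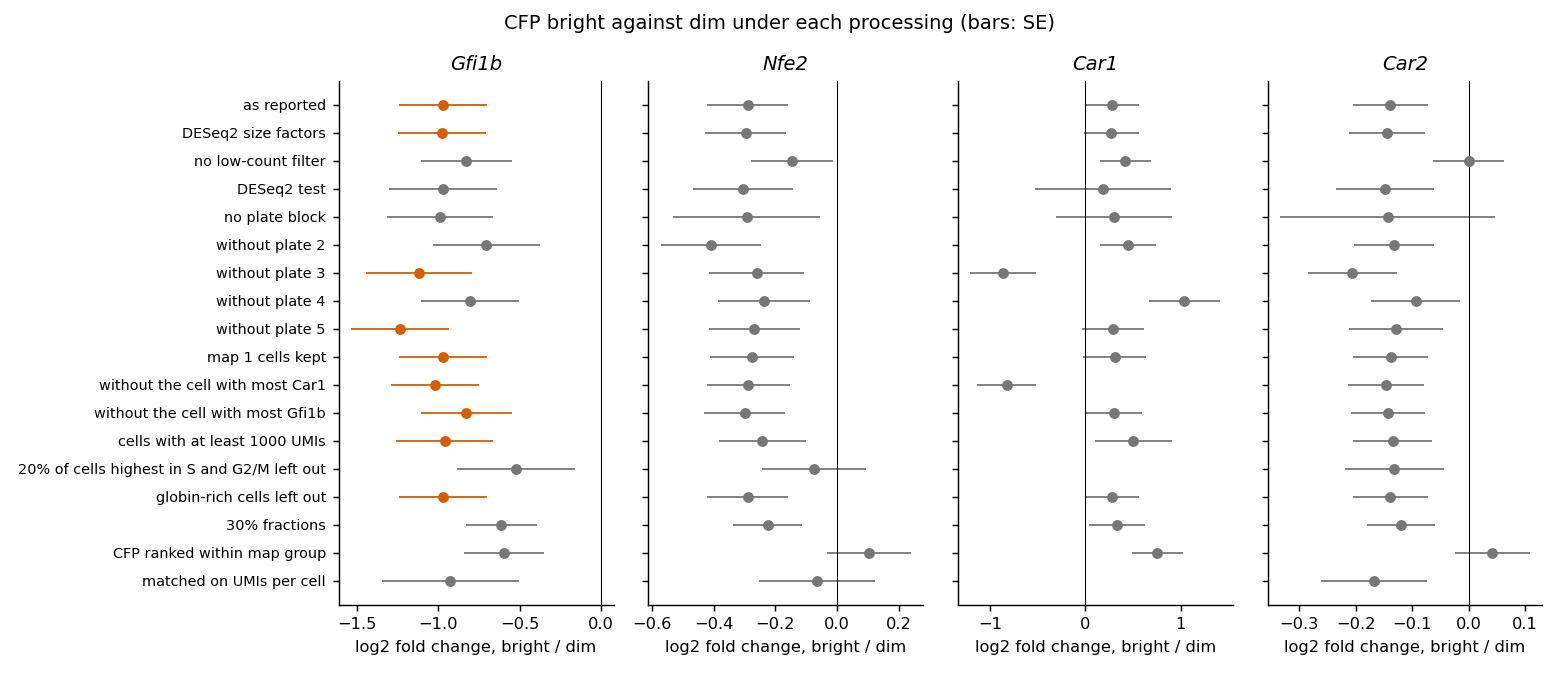
Log2 fold change of bright against dim cells for the 4 tested members under each way of processing, with its SE; orange marks an adjusted p under 0.05. Gfi1b was below 0 in every setting and called in 9 of 18; Car1 changed side without plate 3 and without 1 cell, and 2 settings have no Car1 value.

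Cells were also compared by cycle itself, since CFP and cycle genes moved together: in each plate the 20% of cells with most S phase and G2/M UMIs (204 cells) against the 50% with fewest (507), all of at least 1000 UMIs. Nfe2 was lower in the cycling cells. Of 3427 genes tested, 571 were called (16.7%), 292 higher (8.52%) and 279 lower (8.14%), with the list genes themselves left out, and Nfe2 and Car1 were called among 4 tested members. Nfe2 stood at 795, 553, 545 and 361 CPM in the high set of plates 2, 3, 4 and 5 and at 1061, 800, 628 and 453 in the low set. It was lower on each plate, and the plates overlapped between sets. The fold change was -0.41 ± 0.12 (adjusted p = 0.00980). It was -0.39 (adjusted p = 0.0735) without plate 2 and -0.35 (adjusted p = 0.1004) without plate 3. Without the plate as a block it was -0.42 (adjusted p = 0.421), and DESeq2 gave -0.39 (adjusted p = 0.263).

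Car1 had a fold change of 0.99 ± 0.31 (adjusted p = 0.0197), and this too rested on the 1 cell: without it the value was -0.12 (adjusted p = 0.823), and without plate 3 it was -0.06 (adjusted p = 0.935). Gfi1b was at -0.19 (adjusted p = 0.637) and Car2 at -0.07 (adjusted p = 0.523).

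Gata1 did not pass the filter on low counts here either. It had 28 UMIs in the 204 high cells (55.5 CPM) and 8 in the 507 low cells (10.7 CPM). By plate the high cells stood at 106, 36.8, 62.5 and 27.8 CPM and the low cells at 11.8, 14.1, 17.1 and 0, so that the sets did not overlap. In the fit without a filter the fold change was 2.31 ± 0.58 (adjusted p = 0.00244). Without the cell richest in Car1, which also held 3 Gata1 UMIs, the high cells of plate 3 were at 15.4 CPM, within the range of the low sets. Klf1 had 3 UMIs in the high and 9 in the low cells.

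**Figure D4:**
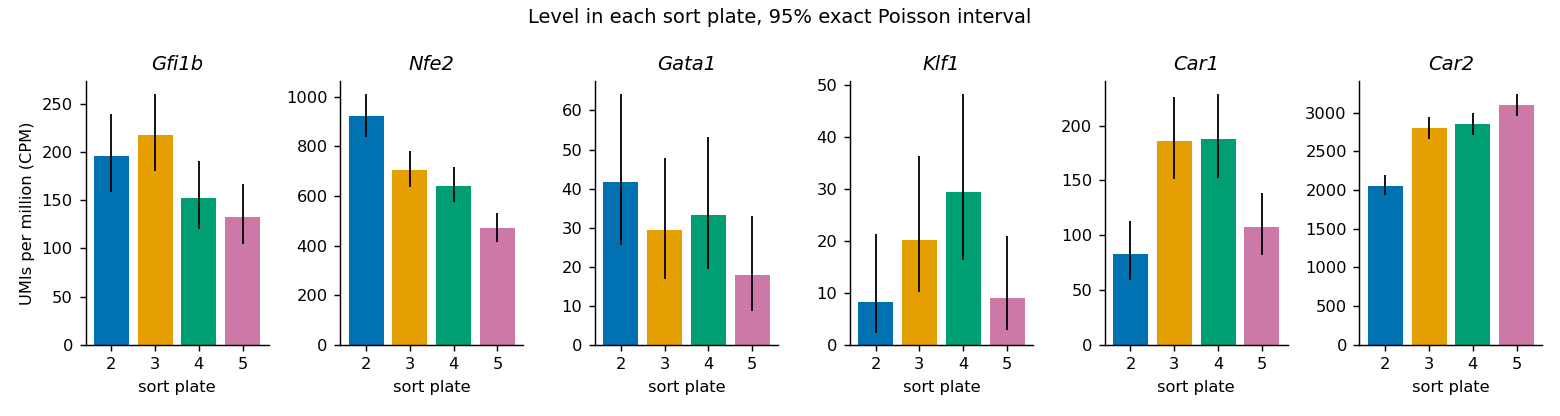
Level of each gene in each sort plate, in CPM, with the exact Poisson 95% interval (counting error only). Nfe2 stood at 922 CPM on plate 2 and 469 on plate 5, and Car2 at 2057 and 3096; the Car1 bar of plate 3 is 68.97 CPM without 1 cell.

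Nfe2 and Car2 also differed between the sort plates. Nfe2 was at 922, 706, 641 and 469 CPM on plates 2, 3, 4 and 5, and Car2 at 2057, 2796, 2849 and 3096. Plate 2 had the highest Nfe2 and the lowest Car2, and plate 5 the reverse. Nfe2 was higher on plate 2 than on plate 5 in 9 of 9 map groups, and Car2 was lower in 8 of 9. Of 2296 genes with enough UMIs, 3.88% varied more between plates than Nfe2 and 2.96% more than Car2, relative to counting error. Gfi1b, at 196, 218, 153 and 133 CPM, had 28.8% of genes more variable by that measure. For the same fold difference the measure rises with a gene's UMI count, so these shares do not rank the size of a change. The highest plate was 1.97 times the lowest for Nfe2, 1.51 times for Car2 and 1.64 times for Gfi1b. Within group 4, Nfe2 was at 968, 663, 750 and 484 CPM and Car2 at 2165, 3353, 3293 and 3799, so the plates differed inside a single group as well. Plates cannot be told apart from the animals or days they may stand for, since neither is recorded.

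**Figure D5:**
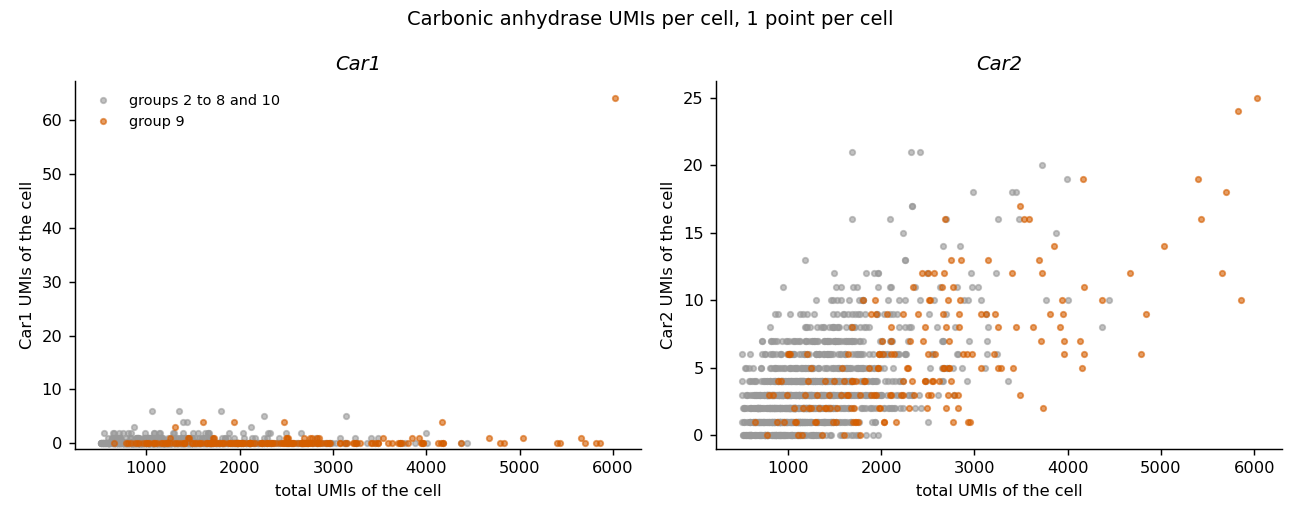
UMIs of Car1 (left) and Car2 (right) in each of the 1420 cells against the total UMIs of the cell, with group 9 in orange. One cell with 6026 UMIs holds 64 Car1 UMIs while no other cell holds more than 6; the same cell holds 25 Car2 UMIs, beside 24 in the next highest.

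One cell accounted for 21.5% of all Car1 UMIs. It was a bright cell of map group 9 on plate 3, with the most UMIs of all cells (6026, from 2533 genes), a CFP rank of 99.6%, a forward scatter rank of 1.60% and a side scatter rank of 98.0% within its plate. It held 64 Car1 UMIs, where its depth times the pool's share of Car1 gives 0.856, and the next highest cell held 6. Its red cell differentiation list, without the members, summed to 62 UMIs against 24.0 at the pool's share, but its erythroid transcription factors to 22 against 32.7 and the GFI1B and GATA1 cofactors to 16 against 20.7. Among genes picked after their values were seen, it had 3 Gata1 UMIs (0.182 at the pool's share), 4 of the erythropoietin receptor Epor (0.115), 14 of the metallothionein Mt1 (0.432), 7 of the haem synthesis enzyme Alad (1.05) and 7 of the biliverdin reductase Blvrb (0.839). Its HSC marker list summed to 8 UMIs against 32.9 at the pool's share, with Hlf at 0 against 2.18. Its S phase list summed to 61 UMIs against 29.4. It held 25 Car2 UMIs (16.4 at the pool's share) and 3 each of Gfi1b and Nfe2, and no Klf1. Globin was near the pool's share, at 2 UMIs of Hba-a2 and 1 of Hbb-b1. A doublet in this well was not tested.

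No common set of cells marked by the members was resolved. Of the 1420 cells, 59 had no UMI of any member, 449 had 1 member, 636 had 2, 232 had 3, and 44 had 4 or more. Pairs were counted in cells thinned to 1000 UMIs. Gfi1b was found in 68 of 467 Nfe2-positive cells (14.6%, 11.5 to 18.1%) and in 14.8% of Nfe2-negative ones (11.9 to 18.0%). Car1 was found in 16 of 149 Gfi1b-positive cells (10.7%, 6.26 to 16.9%) and in 8.07% of the others (6.35 to 10.1%). Gfi1b was found in 5 of 17 Klf1-positive cells (29.4%, 10.3 to 56.0%) and in 14.4% of the others (12.3 to 16.7%), and in 139 of 904 Car2-positive cells (15.4%, 13.1 to 17.9%) against 8.93% of the others (4.36 to 15.8%). These intervals overlapped in each pair, which does not show that a link is absent. Without thinning, Gfi1b was found in 19.9% of Car2-positive cells (17.7 to 22.1%) and in 7.14% of the others (3.32 to 13.1%). The Car2-positive cells were also deeper there, at a median of 1316.5 UMIs against 914. Gata1 and Klf1 were never found together in a thinned cell, but with 19 and 17 positive cells this was not resolvable. Cells with and without a UMI of a member had similar CFP ranks, with mean differences over plates between -2.11 and -0.77 percentage points for the 6 members. The 19 Gata1-positive thinned cells had a forward scatter rank 9.70 points lower than the rest (SD 3.82 over 4 plates), lower on each plate, and 47.4% of them were in group 9 against 17.0% of the rest. That scatter difference was the largest among the CFP, forward scatter and side scatter ranks of the 6 members, and it was not tested.

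The wider programme was read from lists of related genes. Of 18 tested erythroid and megakaryocyte-erythroid transcription factors besides the members, none rose and 3 fell in the bright cells by edgeR. DESeq2 called 1 of the 18. The median fold change of the list was -0.25 against -0.02 over all genes, and 6.06% of all genes were called higher and 4.45% lower. The fall was not particular to this list. Of 16 tested HSC marker genes 5 were lower (median -0.65), of 4 lymphoid genes 2 (-0.60), and of 3 myeloid progenitor and neutrophil genes 2 (-0.56), with none higher. Of 8 tested megakaryocyte genes none was called (median 0.35). Hhex, a homeobox factor of blood progenitors, fell by 1.22 on the log2 scale (SE 0.27, adjusted p = 0.000252), and remained called without any 1 plate and without the cells highest in cycle genes (-1.28, adjusted p = 0.0462). Myb, which sustains immature erythroid and other progenitors, was at -0.54 ± 0.16 (adjusted p = 0.00937), with -0.54 (adjusted p = 0.0503) without plate 2 and -0.42 (adjusted p = 0.159) without plate 4. Without the cells highest in cycle genes it was -0.97 (adjusted p = 0.00659), so that Hhex and Myb were among the 19 genes called there. Runx1 was at -0.59 ± 0.20 (adjusted p = 0.0345), and it lost its call without plate 2, 3 or 5 (-0.46, -0.64 and -0.49), and without the cells highest in cycle genes (-0.64, adjusted p = 0.354). Of 12 tested cofactors of GFI1B and GATA1, edgeR called none, with 2 at an unadjusted p under 0.05 and none called by DESeq2. Lmo2, the bridging protein of the GATA1 complex, was at -0.26 ± 0.12 (adjusted p = 0.147), and Chd4 of the NuRD complex at 0.00 ± 0.13. Neither of the 2 tested NF-E2 relatives passed (none at an unadjusted p under 0.05, none by DESeq2), with Nfe2l2 at -0.43 ± 0.23.

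Genes of the mature red cell did not move with CFP as a group. Of 12 tested red cell differentiation genes, edgeR called none, with 3 at an unadjusted p under 0.05 and none by DESeq2. Of the haem synthesis and iron list, 1 of 10 tested genes was lower, the ferritin light chain Ftl1 (-0.34 ± 0.06, adjusted p = 3.17e-06), which was -0.08 (adjusted p = 0.793) without the cells highest in cycle genes. Hba-a2 was lower (-0.86 ± 0.30, adjusted p = 0.0416) and lost its call without plate 3, 4 or 5 (-0.88, -0.66 and -0.75). DESeq2 called 1 of the 10 haem synthesis and iron genes and 0 of the 2 tested globin genes. The other carbonic anhydrases were scarce: Car3 had 90 UMIs, Car9 28 and Car13 19, and Car4, Car5a, Car6, Car10 and Car14 were at 0.

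In the cycling cells, where 8.52% of all tested genes were called higher and 8.14% lower, the Nfe2 relative Nfe2l2, the regulator of oxidative stress genes, was at -0.74 ± 0.21 (adjusted p = 0.0107) and lost its call without plate 4 or 5 (-0.56 and -0.69), with 1 of 2 tested relatives called. Of 19 tested transcription factors none rose and 3 fell there. They were Lyl1 (-0.71 ± 0.14, adjusted p = 0.000127), Cbfa2t3 (-0.56 ± 0.14, adjusted p = 0.00260) and Hhex (-0.77 ± 0.23, adjusted p = 0.0151), of which Hhex lost its call without plate 3, 4 or 5 (-0.76, -0.67 and -0.75). Of 8 tested haem synthesis and iron genes 2 fell and 1 rose. The ferritin chains Ftl1 (-0.46 ± 0.06, adjusted p = 1.99e-08) and Fth1 (-0.30 ± 0.07, adjusted p = 0.000470) fell and remained called without any 1 plate. Alad rose (0.84 ± 0.24, adjusted p = 0.00838), with 0.64 (adjusted p = 0.163) without plate 3 and 0.75 (adjusted p = 0.0670) without plate 5. Of 11 tested red cell differentiation genes 1 rose and 1 fell, Rexo2 (0.74 ± 0.26, adjusted p = 0.0389) and Isg20 (-0.65 ± 0.22, adjusted p = 0.0382). Rexo2 lost its call without plate 3 or 5 (0.60 and 0.63), and Isg20 when any 1 plate was left out (-0.74 to -0.56). Of 5 tested megakaryocyte genes 1 rose and 2 fell. Of those that fell, Vwf, at -0.98 ± 0.35 (adjusted p = 0.0461), lost its call when any 1 plate was left out (-1.27 to -0.67). Pf4 was higher (1.75 ± 0.27, adjusted p = 2.17e-06), but 56 of its 268 UMIs came from 1 cell, and no fit was made without that cell. These calls are edgeR's. Between the cycle sets DESeq2 called 1 of the 19 transcription factors, 1 of the 8 haem genes and 1 of the 5 megakaryocyte genes. It called 0 of the 2 Nfe2 relatives and 0 of the 11 red cell differentiation genes.

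Genes whose level followed a member over the 36 map group and plate libraries, centred within plate, were ranked by their correlation with it. The closest to Gfi1b were Rrp1 (Pearson r = 0.58), Ywhae (0.56) and Prpf4b (0.55), and to Nfe2 Prr13 (0.73), Med11 (0.72) and Eif3f (0.68). Among the closest to Gata1 were Tfg and Eif3l (0.65 and 0.63). The closest to Car1 were H2-Q7, Hist1h2be and Ranbp3 (0.63, 0.62 and 0.61), and to Car2 Ythdc1, Sdha and Fis1 (0.75, 0.72 and 0.69). No member was among the 3 closest genes of another: Car1 and Car2 correlated at 0.35, Gfi1b and Nfe2 at 0.21, and Gata1 and Nfe2 at -0.50. The libraries share plates and differ in depth, so these values are a description, and those of Car1 include the cell with 64 of its UMIs.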

How the data were processed

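Single HSCs were index sorted into barcoded plates and their UMIs counted. The authors deposited UMI counts per gene entry and well, not normalized, per the file headers and values, and a record in which CFP is a log10 value, forward scatter a linear intensity, side scatter a score of unstated scale, and the map number has no stated meaning. The submitters' processing notes list bcl2fastq 2.15.0.4, cutadapt, STAR, featureCounts, Bismark 0.19.0 and DESeq2 without saying which made which file. How UMIs were counted is not stated in these sources. Bulk and bisulphite samples were not analysed here.

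Recorded cells of map 2 to 10 with at least 500 UMIs were used (none fell below), with CFP as ranks within a plate. Counts were summed per plate and fraction and tested by edgeR 4.0.16 in R 4.3.3, using its quasi-likelihood test with TMM scaling, its own filter on low counts (filterByExpr), a block for the plate, and a Benjamini-Hochberg threshold of 0.05. The plate block comes from the record's plate number, which every fraction shares. The residual degrees of freedom were 6 for the CFP fit and 3 for the cycle fit, against a prior of 370.5 and 43.9 shared over genes, so a gene that varies unusually between cells can be called too readily. Cells were thinned to 1000 UMIs with a fixed seed. No doublet caller was run, the cells having been sorted singly. The fit was tested on simulated data. CPM is per 1000000 UMIs of the same cells. Intervals are exact Poisson or Clopper-Pearson at 95%. The limit for a count of 0 is 3 UMIs of the group's total. Likeness used log2(CPM + 100) over genes with at least 200 UMIs and libraries with at least 5000.

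The members and the gene lists were chosen with earlier results of these data known. The text names the 6 members; of each list the called genes (at most 5 by lowest p) or, with none called, the 2 with most UMIs; and the 3 genes most like each member. Of the genes so chosen, 2 are not reported here. Marker genes given beside a result, the other genes of the cell richest in Car1, Ifitm1 and the other carbonic anhydrases were named after their values were seen. Alternatives were DESeq2 1.42.0 (size factors or test), no filter, no plate block, each plate left out, map 1 kept, cells of 1000 UMIs or more, cycling or globin-rich cells left out, 30% fractions, CFP ranked within map groups, matching on UMIs, and, chosen after seeing the data, leaving out the cell with most Car1 or most Gfi1b.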

Additional observations from a re-analysis of the deposited data

Results flagged for a closer look

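Car1 was at 327 CPM in the dim cells of plate 4, apart from the other 3 plates (78.7 to 112 CPM), from 25 UMIs in 11 of 72 cells with at most 6 in a cell. Car1 was at 491 CPM in the bright cells of plate 3, apart from 59.0 to 123 CPM on the others, from 74 UMIs of which 64 were in 1 cell. These were 2 of 36 sets of 4 plates examined, and chance alone sets apart about 1 set in 20.

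Member UMIs also stood in data that the comparisons did not use. The 10 cells of map 1 held 8 UMIs of Gfi1b, 17 of Nfe2 and 57 of Car2. The 106 wells without a sort record held 9 UMIs of Gfi1b, 19 of Nfe2, 11 of Car1 and 52 of Car2, where a count of 0 would allow 3.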

How the results depend on the processing

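With no filter on low counts the median over the genes of the reported fit shifted by 0.14 (log2) for bright against dim. The plate numbers pair the fractions. Without the replicate block (plate), 122 genes were called for bright against dim, 83 for bright against intermediate, 0 for intermediate against dim and 228 for cycle high against low, with Gfi1b at -0.99, and Nfe2 and Car1 at -0.42 and 1.05 between the cycle sets. With DESeq2's test the counts were 211, 150 and 206 (1 for intermediate against dim), with Gfi1b at -0.97 (adjusted p = 0.0605), and Nfe2 and Car1 at -0.39 and 0.64 between the cycle sets. Leaving out the cells highest in cycle genes (1783 genes tested) left 19, 0 and 0 calls over the 3 CFP contrasts, and Gfi1b at -0.52. CFP ranked within map groups left 34, 14 and 8 calls, with Gfi1b at -0.60, Nfe2 at 0.10 and Car2 at 0.042. Matching on UMIs (1199 genes tested) left 44, 17 and 0 calls, with Gfi1b at -0.93 (adjusted p = 0.250). Fractions of 30% gave 0 calls for intermediate against dim and Gfi1b at -0.61 (adjusted p = 0.0657). With no filter there were 20 calls for intermediate against dim, and between bright and dim Gfi1b was at -0.83 (adjusted p = 0.0871) and Car2 at 0.00033. Without the cell richest in Car1, Car1 was at -0.82 (bright against dim), -0.36 (bright against intermediate) and -0.12 (cycle sets). Gfi1b lost its bright against dim call in each setting for which this paragraph gives its value. It kept the call without the cell with most Gfi1b (-0.83, edgeR adjusted p = 0.0338). The cause of these changes was not tested, beyond the fewer genes or cells where given.

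Leaving out each plate in turn, calls ran from 256 to 348, 245 to 347, 1 to 1 and 415 to 508 over the 4 comparisons. Between bright and dim, Gfi1b ran from -1.24 to -0.71, Nfe2 from -0.41 to -0.24, Car1 from -0.86 to 1.04 and Car2 from -0.21 to -0.09; Car1 ran from -0.48 to 1.16 between bright and intermediate. Between the cycle sets, Gfi1b ran from -0.52 to 0.070, Nfe2 from -0.46 to -0.35 and Car1 from -0.063 to 1.53. The difference in thinned shares ran from -0.19 to 1.36 percentage points for Gata1 and from -0.10 to 1.65 for Car1, and without plate 3 it changed sign in both.

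Shares without thinning gave bright minus dim differences of 0.284 percentage points for Gfi1b, 18.6 for Nfe2, 0.710 for Klf1 and 7.36 for Car2. Thinned to 500 UMIs, they were 0.690 for Klf1, -2.44 for Car1 and 3.63 for Car2. Car1 had no value without the cells highest in cycle genes or with matching on UMIs, since it did not pass the filter. No cell reached the globin limit of 5% of its UMIs, so leaving out globin-rich cells repeats the reported values. Depth limits Gata1 and Klf1 most, with 63 and 35 UMIs in all.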
